A study of Mus musculus with 8 samples.

Results

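The comparison of wild-type skin pigment cells at 2 ages covers 4 of the 8 arrays of the study and 22180 genes, all the genes with a usable row. The members were the arrays titled as wild-type melanocyte stem cells of postnatal day 21 (P21_WT, 2 arrays) and as melanoblasts of day 4 (P4_WT, 2 arrays). Differences are given as P21_WT minus P4_WT on the log2 scale, so a positive value means a higher level in the older cells. The cells came from mouse skin digested with collagenase and dispase, and were sorted as positive for green fluorescent protein and negative for surface p75, per the labels' protocols. Both groups were B-raf +/+ and C-raf +/+, carried TyrCre and the Z/EG reporter, and were on a mixed background of C57Bl/6 and 129/Sv. TyrCre places Cre recombinase under a tyrosinase promoter, and Z/EG switches to green fluorescence after recombination, so the sort collects p75-negative descendants of cells in which that Cre was active, and is not limited to cells that still express tyrosinase. The other 4 arrays (P21_KO) are day 21 cells with the same Cre and reporter and with floxed alleles, B-raf fl/fl and C-raf fl/fl. They entered the fit to help estimate the spread. Of these, replicates 2, 3 and 4 share a label number whose meaning is not stated, so their independence is not known. With these 3 averaged into 1, 328 genes were called between the ages, 253 of them among the 357 (1.61% of genes tested) called without averaging.

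Melanoblasts are the migrating and dividing precursors of pigment cells, which leave the neural crest, spread through the skin and settle in hair follicles. Some become melanocytes that make melanin in organelles called melanosomes and hand it to the growing hair. Others stay in the bulge of the follicle as melanocyte stem cells, which divide little and make little pigment until the next hair cycle. The neural crest also gives rise to Schwann cells, the glia that wrap peripheral axons, and some of their genes, Sox10 among them, are shared by both lineages. At day 4 the first hair coats are growing, and by day 21 the first hair cycle has ended. The comparison asks which genes separate the stem cells from the earlier precursors.

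Markers of the pigment lineage were high on every wild-type array. Dct, a melanin synthesis enzyme that also marks unpigmented precursors, read 10.99 and 11.02 in P4_WT and 10.69 and 10.72 in P21_WT, and its difference of -0.30 ± 0.42 (SE) did not pass the test (limma adjusted p = 0.873). Mitf, the master transcription factor of the lineage, read 8.09 and 8.19 in P4_WT and 7.88 and 7.79 in P21_WT. All 10 melanocyte lineage markers stood above the array median on each of these 4 arrays. The mean of the 10 was 9.49 and 9.40 in P4_WT and 8.53 and 8.39 in P21_WT. Of the 10, Gpr143 alone was called, at -2.71, and 9 read lower while Sox10 read higher.

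Markers of other cell types were present as well. Of 13 measured Schwann cell and glial markers, 12 stood above the array median on each of the 4 arrays, with a list mean of 6.69 and 6.57 in P4_WT and 7.52 and 7.53 in P21_WT. The p75 gene, Ngfr, used for the negative gate, read 5.40 and 4.73 in P4_WT and 5.52 and 4.94 in P21_WT, with overlapping groups. The keratinocyte mean over 14 markers was 6.66 and 5.83 in P4_WT and 7.08 and 6.88 in P21_WT. P4_WT replicate 2 read higher than replicate 1 for endothelial markers (mean of 11 markers 5.29 against 3.44), immune markers (10 markers, 5.17 against 3.15) and mast cell markers (7 markers, 4.58 against 2.13), while both P21_WT arrays read close to replicate 1 for all 3 lists. P4_WT replicate 1 in turn had the highest mean of 14 hair shaft and inner root sheath markers, 5.60 against 4.13 in replicate 2 and 3.14 and 3.19 in P21_WT. The part these lists play in the differences below was not tested. In sorted bulk RNA, fewer cells of a type and less RNA per cell cannot be told apart.

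**Figure D1:**
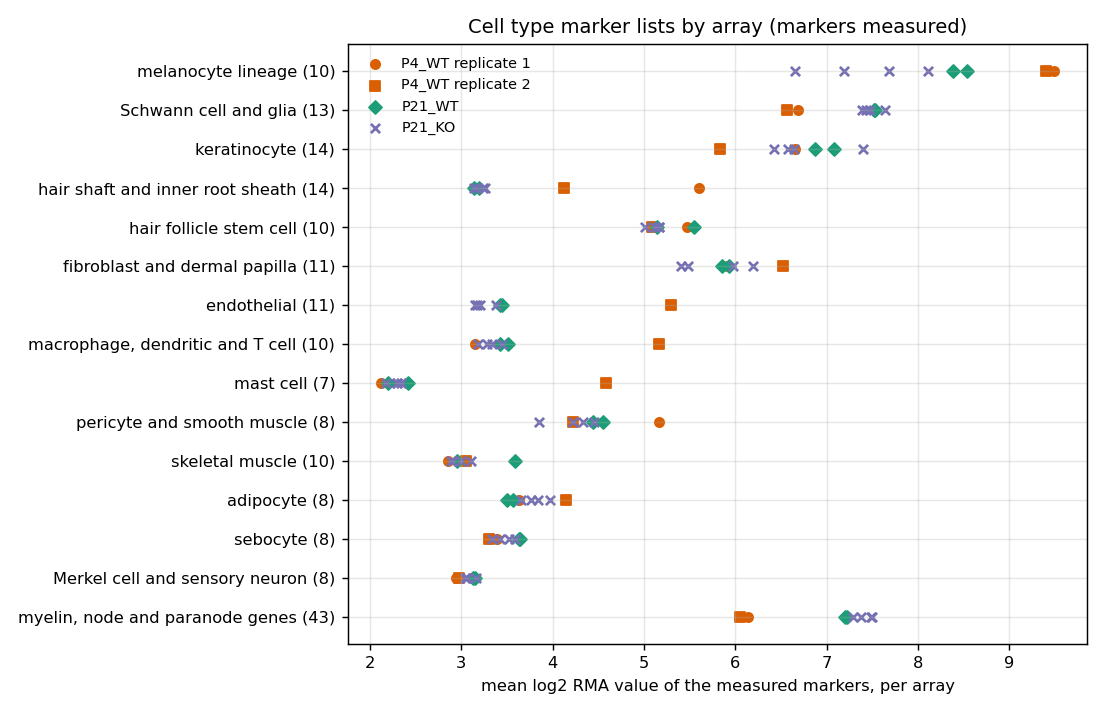
Mean log2 RMA value of each cell type marker list (vertical axis, with the number of markers measured) on each of the 8 arrays, with symbols for the groups and, in P4_WT, for the 2 replicates. P4_WT replicate 2 lies to the right for endothelial, immune and mast cell markers, and replicate 1 for hair shaft markers; the myelin list at the bottom was written after the values were seen.

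Across 22180 genes limma called 357 between the ages at an adjusted p under 0.05, which is 1.61% of genes tested. Of these, 168 were higher in P21_WT (0.757%) and 189 were lower (0.852%). Over all genes the median difference was 0.002 and 50.2% of genes were higher, a balance that RMA sets by giving all arrays 1 distribution, so a change of total RNA could not be seen. Called rises ranged from 0.90 to 4.75 with a median of 1.63, and called falls from -4.95 to -0.90 with a median of -1.61. At least 4-fold changes made up 45 of the rises and 56 of the falls. In all 357 the groups did not overlap, as was so for 43.5% of all genes tested with 2 arrays a group.

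The count rested on single arrays. It was 121 without P21_WT replicate 1, 119 without P21_WT replicate 2 and 233 without P21_KO replicate 3. Rises fell in number from 168 to 109 and 110 without P4_WT replicates 1 and 2, and to 107 without P21_KO replicate 3. With the 4 wild-type arrays alone 49 genes were called, 46 of them among the 357. Quantile normalization turned the split to 227 higher and 154 lower, or 59.6% higher against 47.1%. All 8 fits that left out 1 array kept P21_KO arrays, so a call in each need not hold with the wild-type arrays alone. In every one of the 8 fits that left out 1 array, 66 genes were called, 36 higher and 30 lower, and the accounts below lead with these.

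**Figure D2:**
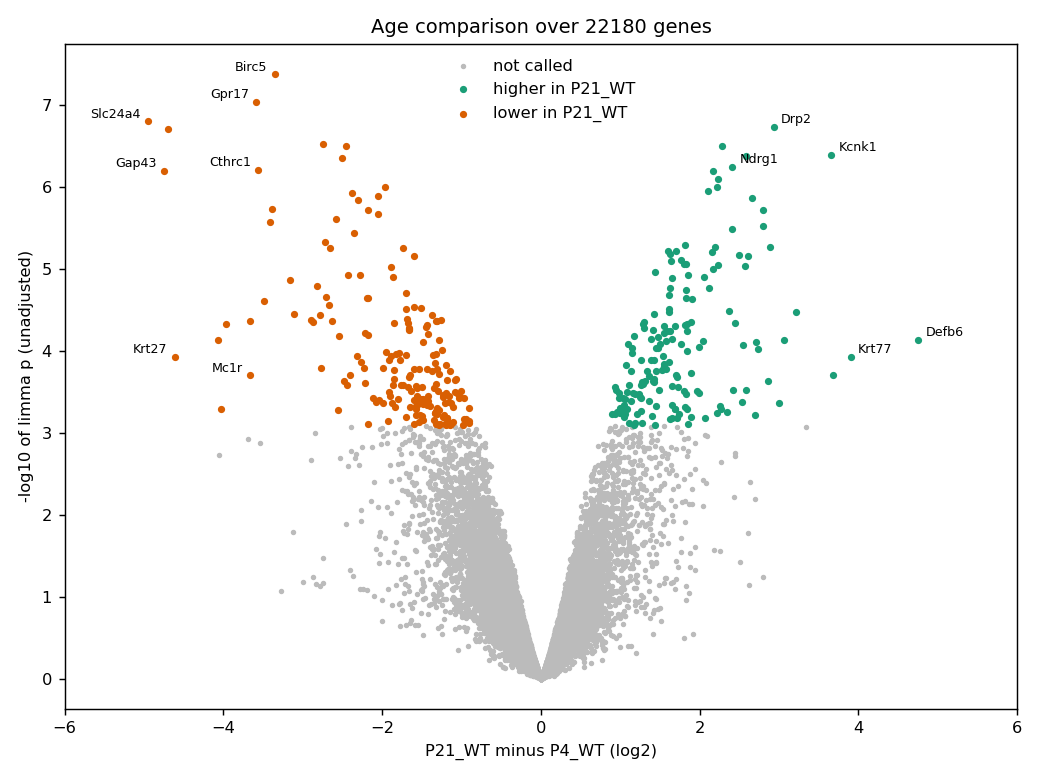
Difference P21_WT minus P4_WT on the log2 scale (horizontal) against -log10 of the unadjusted limma p (vertical) for 22180 genes, with 168 genes called higher and 189 called lower in colour. The named falls Birc5, Gpr17, Slc24a4 and Gap43 and the named rises Drp2, Kcnk1 and Ndrg1 lie at the top of each arm.

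The calls depended on how bright a gene was. Of 8992 genes with a mean under 3 over the wild-type arrays, 2 were called. Among the 565 genes above 8, 29 were called and 28 of those were rises, although 65.5% of these bright genes were lower and their median was -0.165. Of the 189 falls 66, and of the 168 rises 12, read below the arrays' median in their lower group. RMA compresses differences near the floor, so the sizes of such changes are not well measured. Of the 357 called genes 347 were protein coding, and 2 rises and 5 falls lay on the X chromosome. These were 1.83% of protein-coding genes and 0.779% of X-linked genes, against 1.61% of all genes. On P4_WT replicate 2, Xist read 8.94 and the Y-linked Eif2s3y 1.94, and on the other 7 arrays they read 1.95 to 2.77 and 6.92 to 7.87. With the sex chromosomes left out 361 genes were called, 350 of them among the 357.

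Among the 20 named stable rises, 7 were on a list of myelin, node and paranode genes that was written after the rises had been seen. Drp2, which encodes a dystrophin relative that anchors Schwann cell membranes to the surrounding matrix, read 6.36 and 5.98 in P4_WT and 9.03 and 9.17 in P21_WT. Its rise of 2.93 ± 0.19 (SE; 7.64-fold) had the smallest p of any rise (limma adjusted p = 0.000863). The P21_KO arrays, which share the P4_WT arrays as their comparison, read 9.47 to 9.72.

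Several genes of the myelin membrane and its junctions rose. Cldn19, a tight junction protein of peripheral myelin, read 7.80 and 7.73 in P4_WT and 10.06 and 10.03 in P21_WT, a rise of 2.28 ± 0.16 (SE). Pllp, a lipid raft protein of myelin, read 7.04 and 6.79 in P4_WT and 9.52 and 9.46 in P21_WT, a rise of 2.58 ± 0.18. Both groups were tight for these genes. Mal, another myelin raft protein, rose from 7.68 and 7.11 to 9.64 and 9.27 (2.06 ± 0.22 SE, limma adjusted p = 0.00471). Fa2h, the enzyme that hydroxylates the fatty acids of myelin lipids, rose by 1.83 ± 0.19 (SE) from 7.34 and 7.22 to 8.93 and 9.29. Abca2, a lipid transporter of myelinating glia, rose by 2.10 ± 0.17 (SE) from 4.29 and 4.36 to 6.50 and 6.35. Plekhb1, Cadm3 and Ncmap, the last a myelin protein of peripheral nerve, rose by 2.19, 1.83 and 2.36, and Ncmap lost its call in 1 of the 8 fits.

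Node and paranode genes, which organise the gaps between myelin segments, included both called and uncalled members. Nfasc, an adhesion molecule of nodes, read 4.36 and 4.57 in P4_WT and 6.53 and 6.85 in P21_WT, a rise of 2.22 ± 0.17 (SE). Kcna1, a voltage-gated potassium channel, read 6.62 and 6.15 in P4_WT and 9.01 and 9.09 in P21_WT, a rise of 2.66 ± 0.22. Gldn, the Schwann cell protein that gathers node components, rose by 1.63. Cntnap1 at 0.12, Cntn1 at -0.03 and Cntn2 at 0.00 were not called.

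Egr2, Pou3f1 and Sox8, transcription factors found in Schwann cells, rose. Egr2, the zinc finger factor required for myelination, read 5.61 and 5.93 in P4_WT and 7.59 and 7.57 in P21_WT (1.81 ± 0.19 SE, limma adjusted p = 0.00394). Pou3f1, which acts before it in Schwann cells, read 6.20 and 5.96 in P4_WT and 7.82 and 7.60 in P21_WT (1.63 ± 0.17 SE). Sox8, a relative of Sox10, rose by 2.55 ± 0.36 (SE) and kept its call in 5 of the 8 fits. Sox10 itself read 7.23 and 7.43 in P4_WT and 7.99 and 8.14 in P21_WT, a difference of 0.73 ± 0.21 (SE) that did not pass (limma adjusted p = 0.164).

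Proteins of compact myelin and its inner wrap were among the called genes. Pmp22, a compact myelin protein, was already bright in P4_WT at 9.85 and 9.70 and read 10.92 and 10.81 in P21_WT (1.09 ± 0.15 SE). Mbp rose by 1.26 and Cnp by 1.54, and Mag, the adhesion protein of the innermost wrap, rose by 1.84. Mbp kept its call in 1 of the 8 fits, and Mag and Pmp22 in 5 each. Ngfr at 0.16, Gfap at 0.01 and Fabp7 at -1.22, found in immature or non-myelinating glia, were not called, while Gap43, also known from immature Schwann cells, fell by 4.75.

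Counted as lists, 7 of 13 measured Schwann cell and glial markers rose and 0 fell (53.8% called against 1.61% of all genes), with a median of 1.09 against 0.002 for all genes. The count was 3 without either P21_WT replicate and 4 without P4_WT replicate 2. With the 4 wild-type arrays alone the count was 0. A wider list of 46 myelin, node and paranode genes was written after these rises had been seen. It had 43 measured members, of which 22 rose and 0 fell (51.2% called), with a median of 1.15. It describes the rises and is no independent evidence of their direction. Its count ran from 12 without P21_WT replicate 2 and 13 without P21_WT replicate 1 to 21, with 15 without P4_WT replicate 2, and 12 of the 36 rises called in all 8 fits were on it. On the 4 wild-type arrays alone 7 of the wider list rose and 0 fell. The list's mean was 6.14 and 6.05 in P4_WT, 7.20 and 7.23 in P21_WT, and 7.29 to 7.50 in P21_KO. On the same arrays Dct, Mitf and the other pigment lineage markers also stood above the median.

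**Figure D3:**
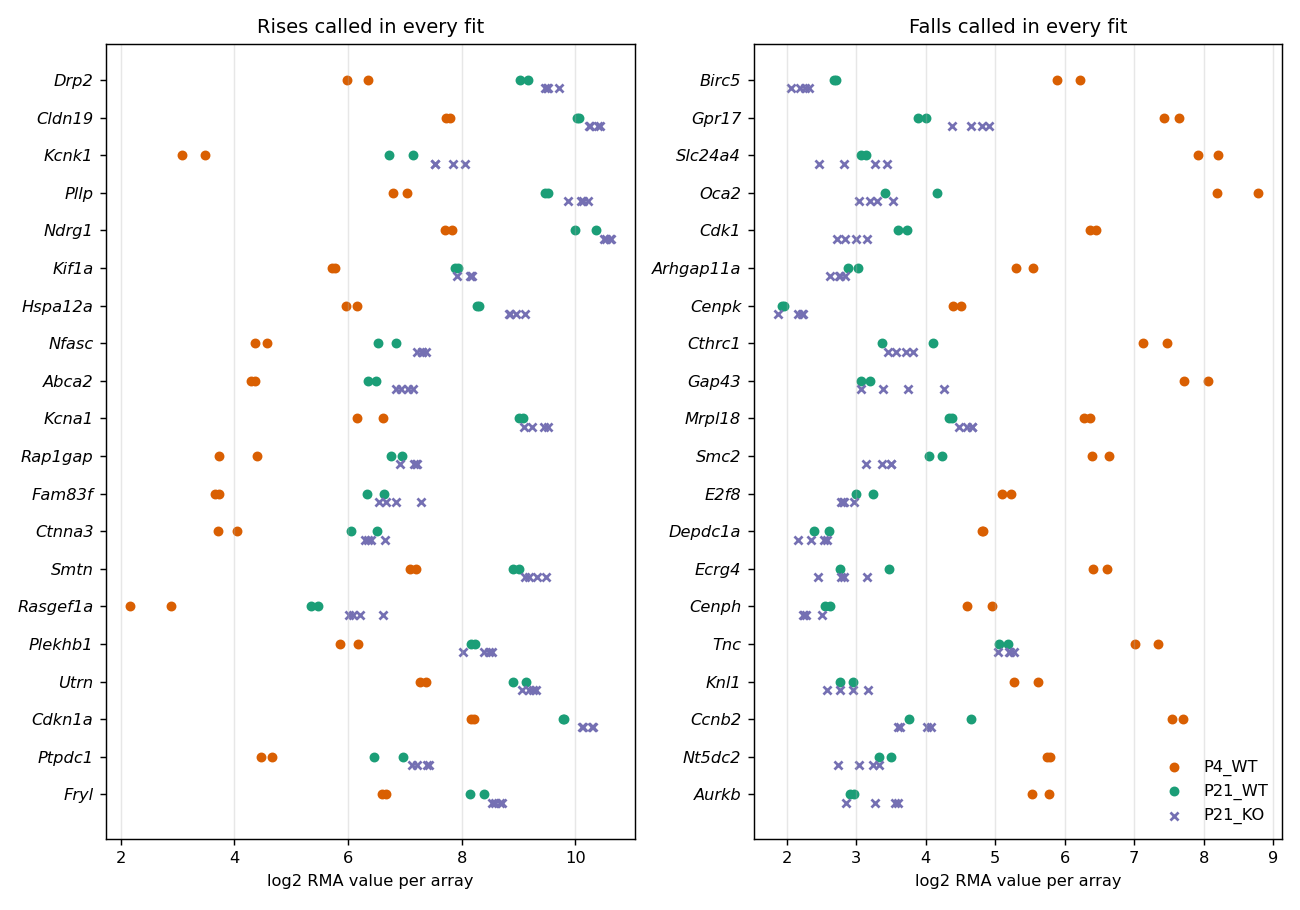
Log2 RMA value on every array for the 20 rises (left) and 20 falls (right) with the smallest p among genes called in all 8 fits that left out 1 array. P4_WT and P21_WT do not overlap, which the choice of these genes required. The P21_KO crosses lie on the P21_WT side of both P4_WT arrays for all 40 genes. The P21_KO arrays share the P4_WT arrays as their comparison and also entered the fits by which the genes were chosen.

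Kcnk1, Slc27a1 and Slc12a2 were transport genes among the other rises called in all 8 fits. Kcnk1, a leak potassium channel, read 3.48 and 3.08 in P4_WT and 6.73 and 7.15 in P21_WT, a rise of 3.66 ± 0.26 (SE; 12.6-fold). Slc27a1, a fatty acid importer, rose by 2.24 ± 0.23 (SE) from 4.25 and 4.17 to 6.29 and 6.60. Slc12a2, a sodium, potassium and chloride cotransporter, rose by 1.44 ± 0.15 (SE). These stand among 4 rises and 3 falls in 361 solute carrier genes and 2 rises in 90 potassium channel genes, 1.94% and 2.22% called against 1.61% of all genes.

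Rap1gap and Rasgef1a, regulators of small GTPases, were also called in all 8 fits. Rap1gap, which switches off the Rap GTPase, read 4.39 and 3.72 in P4_WT and 6.76 and 6.95 in P21_WT (2.80 ± 0.24 SE). Rasgef1a, an exchange factor, read 2.89 and 2.16 in P4_WT and 5.47 and 5.34 in P21_WT (2.88 ± 0.28 SE). In both genes every P21_WT value lay above every P4_WT value, as the rule for naming these genes required.

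Cdkn1a, an inhibitor of cyclin-dependent kinases, was bright in both groups, at 8.15 and 8.21 in P4_WT and 9.78 and 9.79 in P21_WT. Its rise of 1.60 ± 0.16 (SE) had a limma adjusted p of 0.0033. Cdkn1b, a second such inhibitor, rose by 1.13 and kept its call in 4 of the 8 fits. Among 20 inhibitor and quiescence genes these were the only 2 called (10% against 1.61% of all genes), and the median was 0.07.

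Sfrp5, Il34, Il16 and Reln rose, while calls were few in the families of secreted signals, with 2 rises in 78 interleukins and their receptors (2.56% called) and 0 calls in 54 chemokines and their receptors, against 1.61% of all genes. Sfrp5, a secreted Wnt antagonist, read 4.52 and 3.96 in P4_WT and 6.45 and 7.01 in P21_WT (2.49 ± 0.25 SE). Il34, a ligand of the macrophage growth factor receptor, rose by 1.77 ± 0.18 (SE) and Il16, a cytokine, by 2.57 ± 0.27. Reln, a large extracellular signalling protein, rose by 1.81. Axin2, a feedback target of the Wnt pathway, fell by 1.10 and kept its call in 1 of the 8 fits.

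Ndrg1, a stress and differentiation gene whose loss causes a demyelinating neuropathy, rose from 7.71 and 7.83 to 9.99 and 10.37 (2.41 ± 0.18 SE). Utrn, the dystrophin relative utrophin, rose by 1.70 ± 0.17 (SE). Kif1a, a motor of axonal vesicle transport, read 5.78 and 5.72 in P4_WT and 7.93 and 7.89 in P21_WT (2.16 ± 0.16 SE). It was the 1 kinesin that rose, among 38 measured, while 5 fell (15.8% called against 1.61% of all genes). Without P21_WT replicate 1 the falls numbered 2, without P21_WT replicate 2 they numbered 0, and without P21_KO replicate 3 or P4_WT replicate 2 they numbered 3. Hspa12a, a distant member of the heat shock family, rose by 2.23 ± 0.17 (SE), and Smtn, a smooth muscle cytoskeletal protein, by 1.81 ± 0.18.

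The pattern searched for EGR factors was GCGNGGGCG, where N is any base and was C in both matches of Abca2. The promoter of Abca2 is shown because it holds 2 matches to this pattern, as few of the named stable rises did. Of 16 with a promoter in the table, 2 (Abca2 and Rasgef1a) held a match and 14 held none. The window runs from 250 bases before to 50 after the annotated start, from RefSeq on GRCm38.p6, at chr2:25428349-25428648 on the plus strand, with GCGNGGGCG in capitals.
Abca2: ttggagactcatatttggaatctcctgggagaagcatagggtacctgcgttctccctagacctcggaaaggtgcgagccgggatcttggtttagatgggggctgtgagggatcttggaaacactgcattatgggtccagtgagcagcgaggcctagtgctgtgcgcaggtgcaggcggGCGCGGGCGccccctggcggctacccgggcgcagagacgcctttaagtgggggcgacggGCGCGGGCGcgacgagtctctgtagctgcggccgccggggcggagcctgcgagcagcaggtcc
This motif, searched on both strands, was in 7.65% of the 16990 genes with a promoter in the table, in 17 of 131 called rises and in 11.2% of 152 called falls. None of the 10 Schwann cell and glial markers with a promoter held it. It is made of G and C letters only, apart from its open position, and was not adjusted for base composition.

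Immediate early genes, the fast responders to signals and to tissue handling, were higher in P21_WT. Of 24 measured, 9 rose and 0 fell, 37.5% against 1.61% of all genes, and their median was 1.11. Fosb read 5.66 and 6.68 in P4_WT and 9.35 and 8.40 in P21_WT (2.71 ± 0.38 SE), and Jun read 7.91 and 8.59 in P4_WT and 9.93 and 9.67 in P21_WT. Nr4a2, an orphan nuclear receptor, was tighter, at 7.52 and 7.43 in P4_WT and 9.14 and 9.06 in P21_WT (1.62 ± 0.18 SE). Fos, Junb, Jund, Atf3, Nr4a1 and Egr2 were the other called members. Egr1 at 1.18 and Klf4 at 1.04 did not pass, and Egr3 read -0.48.

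The count depended on the arrays, with 2 called without P21_WT replicate 1, and 5 without P21_WT replicate 2 or P21_KO replicate 3. It was 6 without P4_WT replicate 1 or P21_KO replicates 1 or 2, and 10 without P4_WT replicate 2. No immediate early gene was called with the 4 wild-type arrays alone. The median stayed between 0.84 and 1.24 over the fits that left out 1 array. Heat shock genes of the same stress class were partly higher, with Hspa1a at 8.36 and 8.90 in P4_WT and 10.25 and 10.19 in P21_WT (1.59 ± 0.21 SE) and Hspa1b at 1.39. Across 69 heat shock and cochaperone genes 4 rose, 0 fell and 42 read lower, with a median of -0.13, and 1 rose without either P21_WT array. In the full fit 5.8% of the 69 were called, against 1.61% of all genes. All samples went through enzymatic digestion and sorting, and the part of handling in the immediate early and heat shock values was not tested.

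Clock and glucocorticoid target genes read mostly higher. Cry2, a repressor in the core clock, read 4.21 and 3.82 in P4_WT and 6.68 and 6.58 in P21_WT, a rise of 2.61 ± 0.26 (SE; limma adjusted p = 0.00341) called in all 8 fits. Per1, a clock repressor that is also a glucocorticoid target, rose by 1.82 and kept its call in 2 of the 8. Over 17 clock genes 14 read higher with a median of 0.46, though only these 2 were called (11.8% against 1.61% of all genes). Over 15 glucocorticoid targets 13 read higher with a median of 0.70, and Per1, Klf9 (1.39) and Errfi1 (1.34) were called (20%). Without P21_WT replicate 1 or 2, or P4_WT replicate 1, 0 of the 15 were called. The classical target Fkbp5 read -0.02. Of 17 Klf factors 14 read higher, with a median of 0.69 and 1 call (5.88%). The hour of collection was not used here.

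Defb6, Krt77, Clca3a2 and Anxa8, genes expressed in epithelia, gave large rises that were not called in every fit. Defb6, an antimicrobial peptide of epithelia, read 1.88 and 2.33 in P4_WT and 6.37 and 7.35 in P21_WT, and Krt77, a keratin of the upper epidermis, read 4.26 and 4.60 against 8.70 and 7.97. Clca3a2 and Anxa8 rose by 3.67 and 2.99. These 4 kept their calls in 5, 4, 4 and 3 of the 8 fits. Col17a1, a hemidesmosome collagen that anchors basal epidermal and follicle stem cells, rose by 1.55 and kept its call in 7. Of the 14 keratinocyte markers Krt77 alone was called, 9 read higher and 5 lower, and Krt14 was at 0.96. The keratinocyte mean given above, which includes Krt77, was also higher on both P21_WT arrays than on both P4_WT arrays. Within P4_WT that mean was higher in replicate 1, while Defb6 and Krt77 were higher in replicate 2. Within P21_WT the mean and Krt77 were higher in replicate 1 and Defb6 in replicate 2.

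Of the 30 falls called in all 8 fits, 6 were on the cell cycle list and 2 on the melanosome list, and Slc24a4, Gpr17, Gap43, Cthrc1 and Tnc were on neither. Slc24a4, an exchanger of sodium, calcium and potassium, read 8.20 and 7.92 in P4_WT and 3.15 and 3.08 in P21_WT. Its difference of -4.95 ± 0.31 (SE; limma adjusted p = 0.000863) was the largest among called genes, and its P21_WT values lie near the floor. Gpr17, a receptor best known from oligodendrocyte precursors, read 7.65 and 7.43 in P4_WT and 4.01 and 3.89 in P21_WT (-3.59 ± 0.21 SE). Gap43, a protein of growing axons and immature Schwann cells, read 7.72 and 8.06 against 3.19 and 3.07 (-4.75 ± 0.35 SE). It was the 1 called member of 24 axon growth and neuronal cytoskeleton genes (4.17% against 1.61% of all genes), whose median was -0.16.

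Cthrc1, Tnc, Ecrg4, Vcan and Mfap2, which encode secreted or matrix proteins, fell. In the 44 collagen genes 2 rose and 0 fell (4.55% called against 1.61% of all genes). Cthrc1, a secreted protein of migrating and remodelling cells, read 7.13 and 7.48 in P4_WT and 4.11 and 3.37 in P21_WT (-3.56 ± 0.26 SE). Tnc, the matrix protein tenascin C, averaged 7.18 in P4_WT and read 5.05 and 5.19 in P21_WT (-2.06 ± 0.18 SE). Both groups were well above the floor for Tnc. Ecrg4, a secreted peptide precursor, fell by 3.38 ± 0.29 (SE), the proteoglycan Vcan by 3.11 and the elastic fibre gene Mfap2 by 1.80. Of 23 basement membrane and collagen genes Tnc fell, Col17a1 rose and the other 21 were not called, with Col1a1 at -0.18 and Col3a1 at -0.08.

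Of 32 guidance genes 1 rose and 3 fell, and 0 fell without P21_WT replicate 1, 1 without P4_WT replicate 1 and 2 without any one P21_KO array. Of the 32 guidance genes 12.5% were called in the full fit, against 1.61% of all genes. Efna5, a membrane-bound ephrin, read 8.04 and 7.86 in P4_WT and 6.07 and 6.50 in P21_WT (-1.66 ± 0.22 SE). Nrp1, a semaphorin coreceptor, fell by 2.23. Robo1, a Slit receptor, fell by 1.90 but kept its call in 1 of the 8 fits. Sema3b, a secreted semaphorin, read 6.33 and 5.85 against 7.65 and 7.67 and rose by 1.57, while Sema5a and Plxnb3 rose by 1.49 and 1.45. Of the 30 semaphorins and plexins 10% were called, against 1.61% of all genes. Without either P21_WT array 0 of the 30 semaphorins and plexins were called, and 1 without P4_WT replicate 1 and 2 rises and 1 fall without P4_WT replicate 2.

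Further stable falls were Lef1, Abcg2 and Mrpl18. Lef1, the transcription factor of Wnt signalling, read 7.32 and 7.26 in P4_WT and 4.72 and 4.99 in P21_WT (-2.44 ± 0.26 SE). Abcg2, an efflux pump used to mark some stem cells, read 4.35 and 4.56 against 2.59 and 2.53 (-1.89 ± 0.20 SE). Mrpl18, a protein of the mitochondrial ribosome, read 6.36 and 6.28 against 4.33 and 4.38 (-1.96 ± 0.15 SE). Id2, a BMP target, read 8.58 and 8.46 against 6.65 and 7.25 and fell by 1.57, and Fst, a BMP and activin antagonist, fell by 2.08. Id2 kept its call in 4 of the 8 fits and Fst in 3.

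The hair keratins Krt25, Krt27 and Krt71 fell from uneven levels. Krt27, a keratin of the inner root sheath, read 8.30 and 5.63 in P4_WT and 2.28 and 2.42 in P21_WT, and Krt71 read 8.21 and 5.42 against 2.59 and 2.99. P4_WT replicate 1 was the higher array for both, as for the hair shaft marker mean. Krt25, Krt27 and Krt71 were the 3 called among 14 markers (21.4% against 1.61% of all genes), and the median was -1.07. Called markers numbered 8 without P4_WT replicate 2, 4 without P4_WT replicate 1, 2 without any one P21_KO array and 0 without either P21_WT array. The 51 keratin-associated protein genes had 0 calls and a median of 0.003.

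Genes of cell division fell, 6 of the 30 falls called in all 8 fits being on the cell cycle list. Birc5, a mitotic regulator of the chromosomal passenger complex, read 5.89 and 6.22 in P4_WT and 2.69 and 2.72 in P21_WT, and had the smallest p of any gene (-3.36 ± 0.18 SE, limma adjusted p = 0.000863). Of 19 measured cell cycle genes 12 fell and all 19 read lower, 63.2% called against 1.61% of all genes, and 6 and 7 fell without P21_WT replicates 1 and 2. The wild-type arrays alone gave 4 falls on the cell cycle list. Falls outside that list included the kinetochore genes Cenpk (-2.51), Cenph (-2.19) and Knl1 (-2.58), the condensin subunit Smc2 (-2.38) and the repressor E2f8 (-2.05). All of these were called in all 8 fits, and of 20 measured genes named Cenp 5 fell and 0 rose. The 5 kinesins that fell included Kif11, the spindle motor (-2.67), and Kif15 (-2.17).

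Cdk1 and Ccnb2, which together form the kinase that drives entry into mitosis, are shown with their promoters because both hold the letters of late cell cycle promoters. The capitals mark TTTGAA, the cell cycle genes homology region or CHR, and CCAAT, the box of NF-Y, in either orientation. The windows lie at chr10:69352863-69353162 and chr9:70421505-70421804, both on the minus strand of GRCm38.p6, from RefSeq.
Cdk1: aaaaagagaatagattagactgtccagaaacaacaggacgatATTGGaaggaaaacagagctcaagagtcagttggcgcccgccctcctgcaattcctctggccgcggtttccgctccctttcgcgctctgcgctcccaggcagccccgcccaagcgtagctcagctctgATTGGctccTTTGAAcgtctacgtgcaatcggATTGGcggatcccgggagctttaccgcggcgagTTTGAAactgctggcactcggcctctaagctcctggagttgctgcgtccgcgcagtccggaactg
Ccnb2: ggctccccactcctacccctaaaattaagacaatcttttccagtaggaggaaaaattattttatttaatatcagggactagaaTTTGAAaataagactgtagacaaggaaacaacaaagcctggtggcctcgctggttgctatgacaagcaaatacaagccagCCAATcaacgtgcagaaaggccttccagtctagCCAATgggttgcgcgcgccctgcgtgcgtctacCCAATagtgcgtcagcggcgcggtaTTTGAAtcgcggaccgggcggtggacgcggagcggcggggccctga
Cdk1 read 6.36 and 6.45 in P4_WT and 3.73 and 3.60 in P21_WT, and Ccnb2 read 7.70 and 7.54 against 3.76 and 4.65. Each window holds 2 CHR and 3 NF-Y matches, of which 0 overlap. A promoter with at least 1 of each occurred in 33 of 152 called falls (21.7%), in 5 of 131 called rises (3.82%) and in 6.42% of all 16990 genes. In the cell cycle list 9 of 16 promoters held both. A match describes the letters and not binding.

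Pigment genes read lower throughout, and the called falls were a channel protein, receptors, an ion channel and a trafficking GTPase (Oca2, Mc1r, Gpr143, Trpm1 and Rab38). Oca2, an ion channel protein of the melanosome, read 8.79 and 8.18 in P4_WT and 4.16 and 3.41 in P21_WT (-4.70 ± 0.30 SE). Mc1r, the melanocortin receptor that sets pigment type, read 8.45 and 8.06 against 4.05 and 5.13 and fell by 3.66. Of 19 melanosome genes 5 fell (26.3% called against 1.61% of all genes) and all 19 read lower, with a median of -1.23, and the counts were 3 and 2 without P21_WT replicates 1 and 2. A fit to the wild-type arrays alone gave 1 fall on this list. Tyr read 9.59 and 9.44 against 7.88 and 7.27, a difference of -1.94 ± 0.41 (SE) with a limma adjusted p of 0.0636.

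The Oca2 promoter is shown with its single CATGTG, the M-box core recognised by Mitf, at chr7:56239509-56239808 on the plus strand.
Oca2: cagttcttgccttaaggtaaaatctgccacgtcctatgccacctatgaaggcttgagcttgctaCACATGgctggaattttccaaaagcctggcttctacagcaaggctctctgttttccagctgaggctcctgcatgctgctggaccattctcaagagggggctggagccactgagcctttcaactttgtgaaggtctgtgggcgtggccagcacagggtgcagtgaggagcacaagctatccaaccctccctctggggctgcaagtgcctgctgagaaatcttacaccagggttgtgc
This core, read on both strands and one form of the wider E-box CANNTG, was in 7 of 14 melanosome promoters (50%), in 11.6% of all genes and in 8.55% of 152 called falls.

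Trpm1, a melanocyte calcium channel gene, fell by 2.79 ± 0.35 (SE) from 6.87 and 6.09 to 3.99 and 3.39. The gene spans chr7:64153835-64269772 on GRCm38.p6 and contains the hairpin of Mir211 at chr7:64205806-64205911. The row named Mir211 read 4.58 and 3.67 in P4_WT and 2.42 and 2.79 in P21_WT and fell by 1.52, although it kept its call in 1 of the 8 fits. The row named Mir540 on chromosome 12 read 3.22 and 3.34 against 4.22 and 4.22 and rose by 0.94. The Mir540 values in P4_WT lay below the median of all kept values, 3.375. Both rows were picked after their values were seen, and the array rows carry the names of the hairpin genes, so mature levels were not measured. Of 478 microRNA genes 2 were called, 0.418% against 1.61% of all genes. The mature sequences from RefSeq follow with the seed, bases 2 to 8, in capitals, to show that the arms share no seed.
miR-211-5p: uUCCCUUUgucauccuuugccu
miR-211-3p: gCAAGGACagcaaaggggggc
miR-540-5p: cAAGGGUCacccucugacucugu
miR-540-3p: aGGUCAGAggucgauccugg

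Genes of basic cell machinery read lower as groups while hardly any single gene passed. Of 85 oxidative phosphorylation subunits 74 read lower, with a median of -0.45 and quartiles of -0.65 and -0.26, against quartiles of -0.23 and 0.19 for all genes. None was called, and at an unadjusted p under 0.05 limma gave 28 lower and 0 higher. Over all 22180 genes limma gave 1654 lower and 1146 higher at that cut-off. Of 71 mitochondrial ribosomal proteins 60 read lower with a median of -0.60, and Mrpl18 was the 1 call. Mitochondrial import genes outside these groups fell singly, Tomm20 by 1.32, Tomm22 by 1.28 and Timm13 by 1.16. Tomm20 kept its call in 3 of the 8 fits, Timm13 in 2 and Tomm22 in 1.

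Groups of protein making and turnover also read lower. Of 39 proteasome subunits 35 read lower, with a median of -0.42 and 0 called. At an unadjusted p under 0.05 limma gave 14 lower and 1 higher, against 1654 and 1146 of all 22180 genes. Of 18 aminoacyl tRNA synthetases 17 read lower (median -0.49). Cytosolic ribosomal proteins had 71 of 90 members lower and a median of -0.22. Of 51 translation initiation factors 40 read lower, and Eif1ad, at -1.23, was the 1 call. Of 17 DNA repair genes 16 read lower with a median of -0.62 and 0 calls. The median of each of these 7 groups kept its sign when any array was left out and under 3 other scalings. Bright genes as a class also leaned lower, with medians from -0.119 to -0.165 in the classes above 5, and the larger group medians are to be read against those values.

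**Figure D4:**
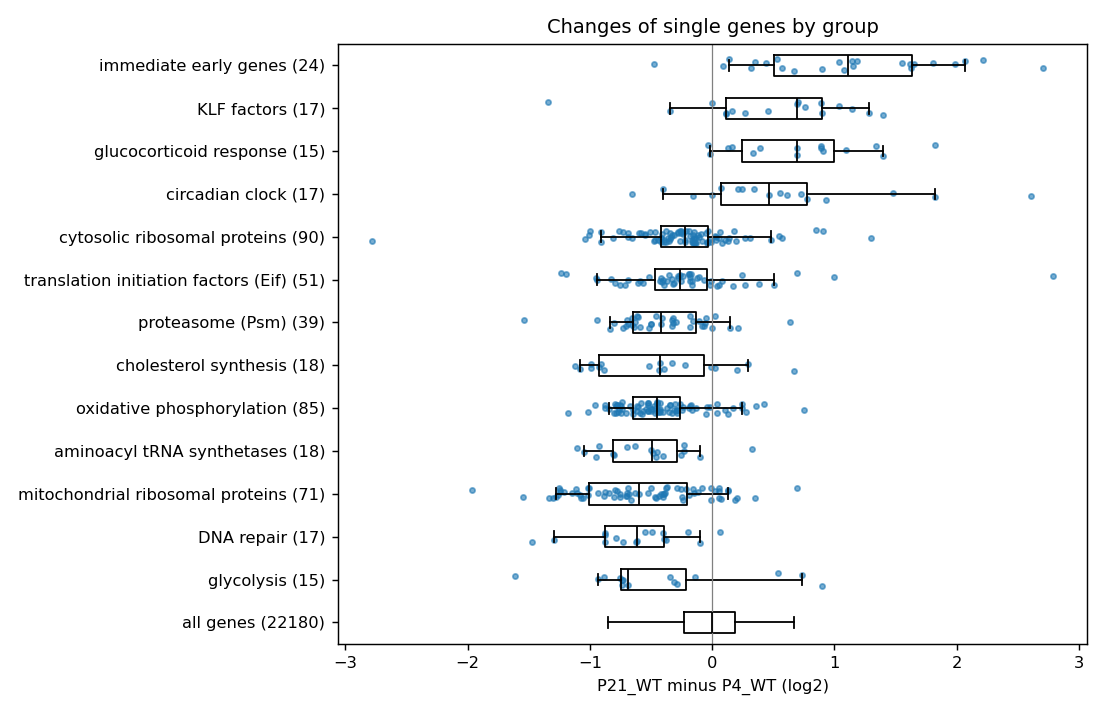
Differences P21_WT minus P4_WT on the log2 scale for single genes (points) in 13 groups, with the number of genes in brackets, and for all genes at the bottom without points; boxes show quartiles and median, whiskers the 5th to 95th percentile. Immediate early, Klf, glucocorticoid and clock genes lie to the right of 0 and the machinery groups to the left of it.

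Many groups had no called member, in a fit that called 1.61% of all genes. At that share, 0 calls in groups of the sizes below do not set them apart from all genes. Of 41 curated lists 15 had no called member, and of 64 symbol families 32 had none. Receptor tyrosine kinases had 0 calls in 24 genes, calcium channels 0 in 25, cadherins and protocadherins 0 in 58, homeobox Hox factors 0 in 37, chemokines and their receptors 0 in 54 and cytochromes P450 0 in 98. Interferon response genes had 0 calls in 18, with Xaf1 at 1.38 (limma adjusted p = 0.139). Of all 357 calls, 126 were in a list or family and 231 were in none, with the myelin, node and paranode list not counted. The cell cycle and melanosome lists, of 19 measured genes each, held 17 calls. Division genes such as Cenpk, Knl1 and Smc2 were outside them, so 17 is not the number of all division and pigment genes called. In a simulated fit of the 22180 genes 29 of 100 genes set to change by 1 log2 unit were found, and 73 of 100 set to change by 2, so a group without calls may still hold changes.

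**Figure D5:**
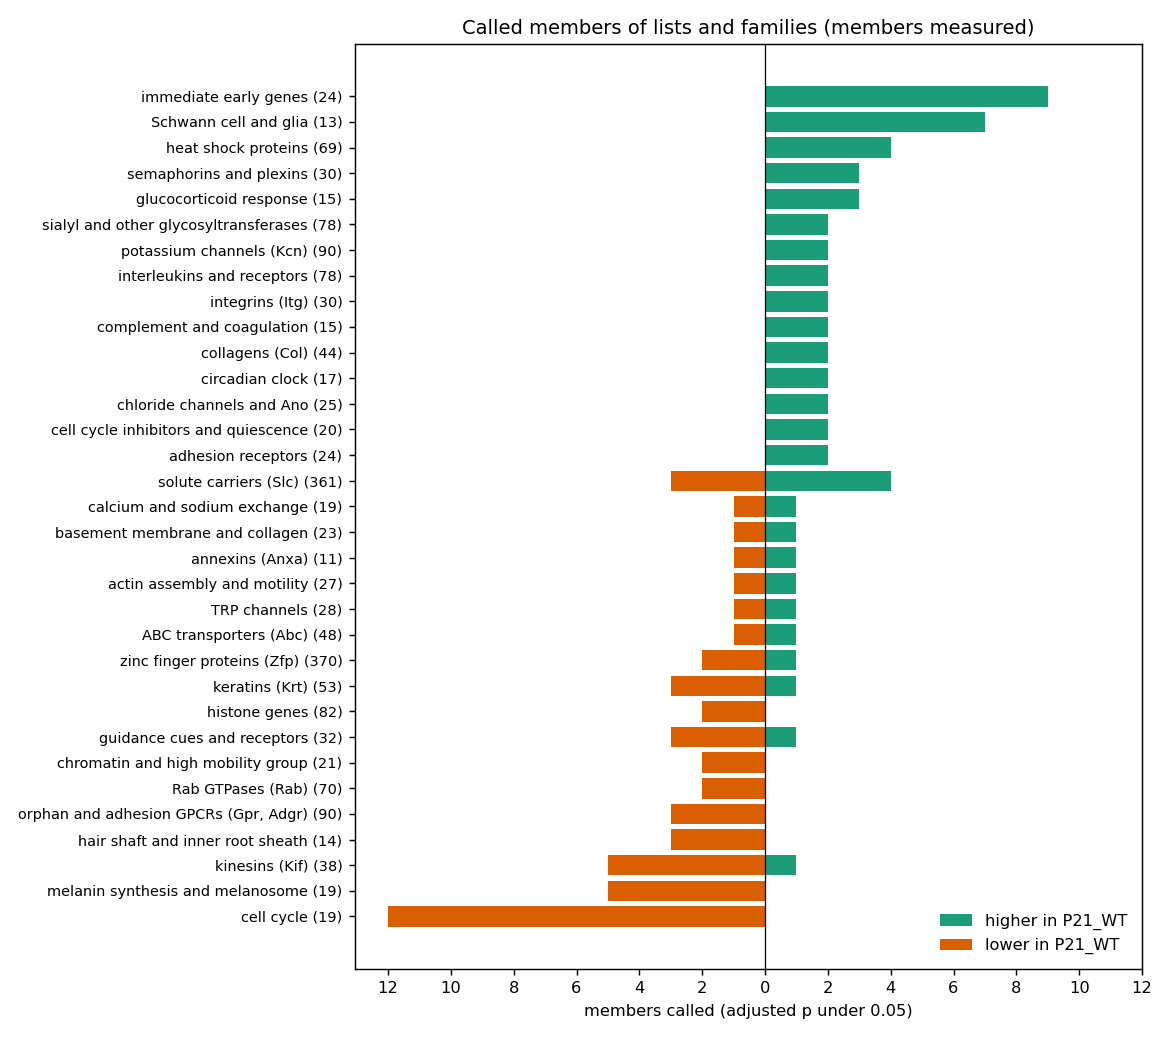
Number of members called higher (right) and lower (left) in P21_WT for the lists and symbol families shown, each with at least 2 called members, with the number measured in brackets. Immediate early and Schwann cell lists reach 9 and 7 on the right, and the cell cycle list reaches 12 on the left.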

How the data were processed

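The deposited values were log2 RMA values. Per the submitters' processing notes, the authors made them with Affymetrix Expression Console, with no version named there. RMA subtracts background, gives all arrays 1 distribution and summarises probe sets. RNA was amplified before hybridisation, per the labels' protocols. Of 41345 rows, 23521 had 1 gene symbol in the platform annotation, 1814 had several and the rest had none. For 1082 genes with several rows the row with the highest mean over the 8 arrays was kept, leaving 22180 genes.

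The 8 arrays entered 1 linear model of 3 groups in limma 3.58.1 in R 4.3.3 (lmFit, eBayes), with 5 residual degrees of freedom. P-values are two-sided and Benjamini-Hochberg adjusted over all genes. The labels call the arrays biological replicates, and the number of arrays limits the precision. Lists got counts and medians with no test. Genes were eligible if called in all 8 fits that left out 1 array and if their P21_WT and P4_WT values did not overlap. Among these the rule for named genes took the 20 rises and 20 falls with the smallest p. It added up to 4 called members of each list (or the 1 with the smallest p), up to 3 of each family, and always Ngfr, Tyr, Dct, Sox10 and Mitf. It passed over unnamed gene models, olfactory receptors, short RNAs and segments of immune receptors. Other genes, called or not, were named after their values were seen. Members, lists and alternatives were chosen with earlier results of these data known. The fit was tested on simulated data, where 7 unchanged genes were called. For promoter letters the first listed promoter of a gene was used. Some items are not reported here.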

Additional observations from a re-analysis of the deposited data

Results flagged for a closer look

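For 54 genes and marker lists the 4 P21_KO arrays were compared, and 2 held an array apart from the other 3 by Dixon's criterion, which flags about 1 in 20 groups by chance. Kif1a read 7.92 in P21_KO replicate 3 against 8.14 to 8.18 in the other 3. Cenph read 2.51 in P21_KO replicate 4 against 2.24 to 2.28. Both values lie on the P21_WT side of the P4_WT arrays.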

How the results depend on the processing

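The 357 calls (168 higher, 189 lower) became 49 (21 and 28) with the wild-type arrays alone and 674 (302 and 372) at an adjusted p under 0.10. Leaving out each array gave 119 to 338 calls, 63 to 159 higher and 46 to 215 lower. Same-numbered arrays did not deviate together over all genes (correlations from -0.037 to 0.006). The 2 deviations within a wild-type group are mirror images, so this cannot settle whether the numbers pair the samples. A replicate block on all arrays left 45 calls (19 and 26), 43 of them among the 357, and a replicate block on the wild-type arrays alone left 0 (0 and 0), where limma gave 2774 genes at an unadjusted p under 0.05. The cause of these changes was not tested. Ngfr, which was not called, at 0.16, turned to -0.17 without P4_WT replicate 2 and -0.12 without P21_WT replicate 1, and ranged up to 0.499. The other settings, which were trend and robust priors, array weights, 3 scalings, a filter on dim genes, averaged probe sets, averaging of the 3 P21_KO arrays that share a number and leaving out X and Y, gave 326 to 459 calls. Signal near the floor limits the sizes of 66 falls and 12 rises.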
